A study of Homo sapiens with 9 samples.

Results

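Of 18250 genes read on the arrays, 106 (0.581%) stood at least 0.8 on the log2 scale away from T47D-VC1 in both T47D-PA5 and T47D-PA6, in the same direction and by nearly the same amount. In 90 of them both lines were higher than the control line, and in 16 both were lower. The members were chosen by their measured signal. For every gene name the probe with the highest mean was used among those marked well above background on all 9 arrays. The mean log2 value of each line was then compared, and a gene was kept when both differences from T47D-VC1 reached 0.8 and T47D-PA6 and T47D-PA5 lay within 0.5 of each other. PTGER4, TWIST1 and names beginning with COL, KRT, KCN, ITG, LAM, WNT, TRIM or LINC or ending in -AS1 were left out by name. All 9 arrays and all 3 contrasts went into that choice, so the shifts below are descriptions and carry no test. Both differences are also taken from the same 3 T47D-VC1 arrays, and an error in those arrays moves both lines alike.

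T47D is an established human luminal breast cancer cell line. T47D-PA6 stably carries a vector with full-length PTH-AS, a long noncoding RNA antisense to the parathyroid hormone gene, T47D-PA5 carries an incomplete PTH-AS that lacks part of its 5′ side, and T47D-VC1 carries the empty vector. All 3 lines were selected with G418, each stands for 1 selected line, and each was measured on 3 single-color arrays. The labels do not say whether the 3 arrays of a line came from separate cultures, so every spread given here is that between these samples only. A difference between a PTH-AS line and T47D-VC1 therefore cannot be told apart from a difference between selected clones, and the arrays hold 0 probes named for PTH-AS.

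Cells that present antigen to helper T cells do so on MHC class II molecules, with the invariant chain CD74 guiding their assembly. Cellular retinoic acid binding proteins carry the active form of vitamin A in the cytosol, and kallikreins are secreted serine proteases. Small NF90-associated RNAs (SNARs) are short noncoding transcripts made by RNA polymerase III from near-identical gene copies.

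The arrays were similar in quality, with 44% to 48% of probes well above background and 0 saturated spots. Replicate 1 of every line was on a slide scanned in an earlier run, and replicates 2 and 3 were scanned in a later one. Over all genes the median absolute log2 difference between replicates 2 and 3 was 0.0784 to 0.100 in the 3 lines, and between replicate 1 and either of them it was 0.196 to 0.256. The members spread more than other genes. Their median within-line SD on the log2 scale was 0.373 in the control line, 0.287 in T47D-PA5 and 0.310 in T47D-PA6, against 0.168, 0.137 and 0.164 over all genes. Of 31 luminal markers 27 were well above background on all 9 arrays. The leukocyte list had 7 of 13 above it, with a summed signal of 2873 to 3062 in T47D-VC1, 2628 to 3043 in T47D-PA5 and 3193 to 3543 in T47D-PA6, and the T cell markers CD2 and CD3E, the B cell marker MS4A1 and the macrophage marker CSF1R were well above background on no array. Of 12 fibroblast markers 3 were above background, of which FBLN1 is a member. The summed signal of all 12 was 532 to 580, 715 to 1068 and 513 to 678 in the same order.

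The raised genes had a median difference of 1.09 in T47D-PA5 and 1.14 in T47D-PA6 on the log2 scale, which is 2.14-fold and 2.20-fold. The median over all 18250 genes was -0.03 in each line. In 44 of the 90 both lines were more than 2-fold above T47D-VC1. The lowered genes had medians of -0.95 and -1.0, and 4 of the 16 were more than 2-fold below it in both lines. T47D-PA5 stood further from the control in 44 raised and 8 lowered genes, and T47D-PA6 in 46 and 8. The number of genes past 0.8 in both lines was 235 before the limit on the gap, 206 of them higher and 29 lower. Of these, 112 failed the limit on the gap, with T47D-PA6 further out in 86 and T47D-PA5 in 26, and 17 were left out by name.

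**Figure D1:**
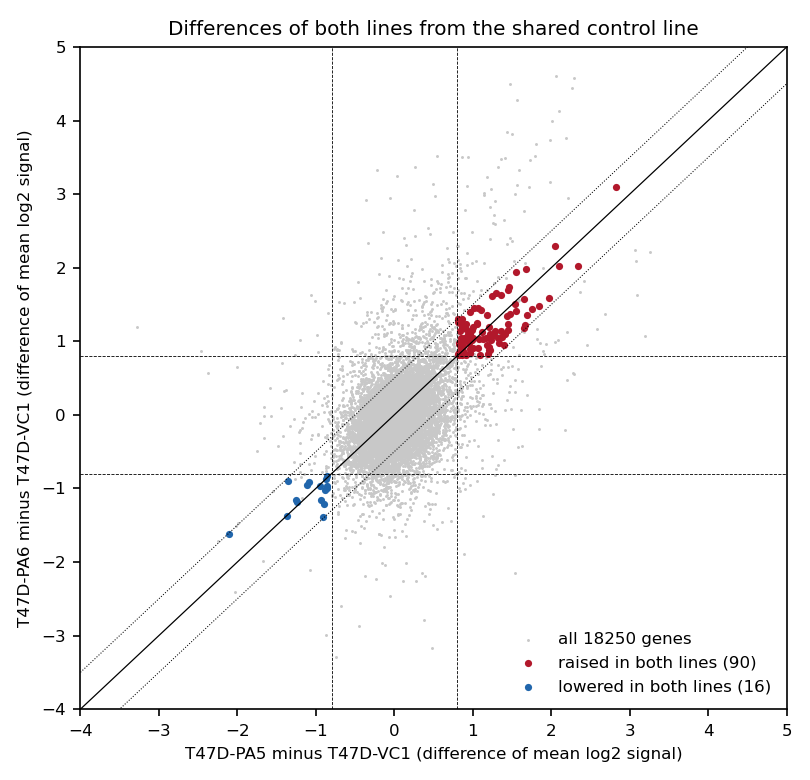
Difference of mean log2 signal from T47D-VC1 in T47D-PA5 (horizontal axis) and in T47D-PA6 (vertical axis), 1 point per gene, with the 90 raised and 16 lowered genes in color. Dashed lines mark 0.8, dotted lines mark a gap of 0.5 between the lines, the axes run from -4 to 5, and 9 genes lie outside them. Many grey points above 0.8 on both axes lie above the dotted band, where T47D-PA6 stood further from the control.

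The 3 T47D-VC1 arrays all lay below the other 6 in 75 of the 90 raised genes, where 4.31% of all genes did so, and all lay above them in 11 of the 16 lowered genes, where 4.67% of all genes did so. The ranges of T47D-PA5 and T47D-PA6 overlapped in 83 raised and in all 16 lowered genes. The limit on the gap favours such overlap, and the share over all genes was not counted, so nothing is read from it. With limma and a Benjamini-Hochberg adjusted p-value under 0.05 over all genes, 36 members were called in T47D-PA5 over T47D-VC1 (34 higher and 2 lower), where 1.49% of all genes were called, 1.25% higher and 0.241% lower. With the replicate number as a block 60 were called, where 2.54% of all genes were. In T47D-PA6 over T47D-VC1 64 were called (57 higher and 7 lower), where 10.4% of all genes were called, 4.62% higher and 5.8% lower. Between T47D-PA6 and T47D-PA5 limma called 0 members, where 9.76% of all genes were called. At an unadjusted p under 0.05, for which the share of all genes was not counted, there were 3. With the replicate block 3 were called, where 13.1% of all genes were, and 1 by the unpaired test of the methods, where 3.99% were. Nothing is read from these counts, because the choice of members used all 3 contrasts. A small gap is also not a measured equality: the 95% confidence interval of the gap reached a median of 0.610 to either side on the log2 scale and lay wholly within 0.5 of 0 in 6 of the 106 genes.

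CRABP1, a cytosolic carrier of retinoic acid, had the largest shift. Its signal was 153, 231 and 191 on the 3 T47D-VC1 arrays, 1533, 1251 and 1273 in T47D-PA5, and 1266, 1810 and 1843 in T47D-PA6. The control arrays lay far below the other 6, and the 2 other lines overlapped. The difference was 7.11-fold in T47D-PA5 and 8.53-fold in T47D-PA6, with within-line SDs of 0.162 to 0.306 on the log2 scale (n = 3). Its second probe gave log2 differences of 2.20 and 2.46. RDH16, a retinol dehydrogenase, was the other member among 15 genes of retinoid handling, a list drawn up after values were seen. It read 58.3, 35.8 and 28.7 in T47D-VC1, 118, 49.6 and 56.0 in T47D-PA5, and 64.4, 83.4 and 83.3 in T47D-PA6, and the lines overlapped. The median of the 15 genes was 0.08 in T47D-PA5 and 0.18 in T47D-PA6. By limma 2 of the 15 were called higher in T47D-PA5 and 1 in T47D-PA6, where 1.25% and 4.62% of all genes were.

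PLEKHB1, a membrane protein with a pleckstrin homology domain, followed in size. It read 457, 351 and 321 in T47D-VC1, 1513, 2107 and 2082 in T47D-PA5, and 2109, 1228 and 1347 in T47D-PA6, or 5.05-fold and 4.08-fold higher. The order of the 2 raised lines turned between replicate 1 and the others. CXCR4, the receptor of the chemokine CXCL12, read 60.6, 28.8 and 27.0 in the control line, 182, 140 and 147 in T47D-PA5, and 111, 159 and 180 in T47D-PA6. Every array of both lines was above every control array, and the first control array was more than 1 log2 unit above the other two. TRANK1 read 99.4, 99.9 and 84.2, then 203, 356 and 378, then 420, 332 and 373 in the same order of lines, and its second probe gave log2 differences of 1.82 and 2.03. SYT17, a member of the synaptotagmin family, read 77.1, 213 and 176 in T47D-VC1, 252, 484 and 493 in T47D-PA5, and 404, 514 and 517 in T47D-PA6. Its control arrays were all lowest, although they ranged over more than 1 log2 unit, and T47D-PA5 overlapped with T47D-PA6.

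Serine proteases were found among the largest shifts. TMPRSS3, a membrane-bound protease needed for hearing, read 26.8, 39.9 and 45.7 in T47D-VC1, 190, 131 and 140 in T47D-PA5, and 129, 224 and 201 in T47D-PA6. The differences were 4.14-fold and 4.92-fold. The control arrays did not overlap with either line, while T47D-PA5 lay within the T47D-PA6 range. Of the kallikrein genes, a list made after values were seen, only KLK1 and KLK8 had a probe well above background on all 9 arrays, and both are members. KLK1, tissue kallikrein, read 37.9, 45.4 and 45.5 in T47D-VC1, 64.9, 161 and 154 in T47D-PA5, and 108, 155 and 160 in T47D-PA6. KLK8, a kallikrein expressed in skin and brain, read 103, 40.2 and 48.7 in T47D-VC1, 84.4, 251 and 294 in T47D-PA5, and 113, 207 and 231 in T47D-PA6. For KLK1 the control arrays were all lowest, while for KLK8 they overlapped with T47D-PA5, and within the earlier run the KLK8 differences were only -0.29 and 0.13. The KLK1 and KLK8 probes lie 177 kb apart on chromosome 19 (hg19) with 0 other genes of the 18250 between them. The filter left out dimmer kallikrein probes that went both ways. A KLK2 probe, well above background on 8 arrays, gave -0.18 in T47D-PA5 and 0.04 in T47D-PA6. KLK5 (5 arrays) gave 0.57 and 0.83, a KLK6 probe (4 arrays) 0.83 and 1.90, and KLK9 (1 array) -0.53 and -0.37.

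**Figure D2:**
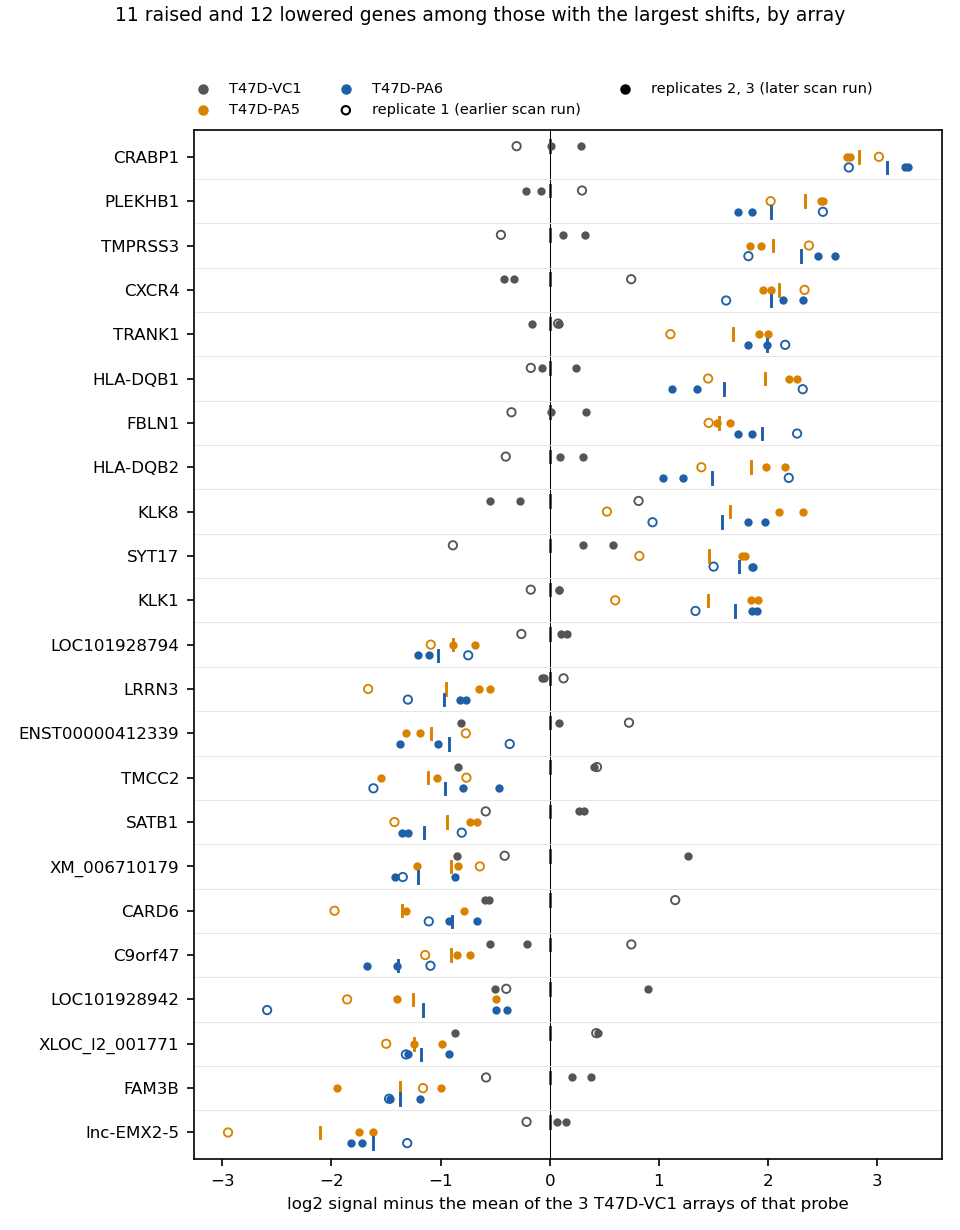
Log2 signal on each array minus the mean of the 3 T47D-VC1 arrays, for 11 of the 12 raised and all 12 lowered genes with the largest mean shift. Points are arrays, open for replicate 1 and filled for replicates 2 and 3, and bars are line means. CRABP1 lies furthest to the right and lnc-EMX2-5 furthest to the left, and the open points of KLK8 and CARD6 stand apart from the filled ones.

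The class II genes HLA-DQB1 and HLA-DQB2 and the invariant chain CD74 were raised in both lines. HLA-DQB1 encodes the beta chain of the DQ molecule. It read 219, 292 and 236 in T47D-VC1, 676, 1188 and 1127 in T47D-PA5, and 1232, 536 and 628 in T47D-PA6, which is 3.92-fold and 3.02-fold higher. The control arrays were lowest, and T47D-PA6 spanned the T47D-PA5 range because its replicate 1 was more than 1 log2 unit above the mean of the others. All 5 probes that carry the name HLA-DQB1 passed the background filter, and the other 4 gave 1.75 to 1.85 in T47D-PA5 and 1.38 to 1.64 in T47D-PA6. HLA-DQB2 is a close copy of HLA-DQB1, and 1 probe named HLA-DQB1 maps beside it, so signal of the 2 genes may be shared. Its signal was 26.9, 43.8 and 38.0, then 93.0, 159 and 140, then 162, 72.9 and 82.7. CD74 read 26.7, 52.7 and 33.6 in T47D-VC1, 55.5, 82.6 and 74.2 in T47D-PA5, and 75.8, 73.4 and 64.0 in T47D-PA6, with no overlap of the control arrays and a difference of 1.93-fold and 1.96-fold.

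The promoters of these 3 genes are shown because all 3 met the rule, and a shared cause was not tested. CD74 did not follow the other genes on every array. In T47D-PA6 replicate 1 was above the mean of replicates 2 and 3 by 0.145 for CD74, against 1.09 for HLA-DQB1 and 1.06 for HLA-DQB2. Without T47D-VC1 replicate 1 the CD74 differences were 0.73 and 0.75, below the limit. Class II genes and CD74 are known to share an upstream module, bound by RFX factors and by NF-Y at an inverted CCAAT box and switched on through the coactivator CIITA. The 250 bases before the start are from RefSeq (GRCh38.p14), 5′ to 3′ along the gene, with CCAAT or its complement ATTGG in capitals. They are at chr6:32666658-32666907 for HLA-DQB1, chr6:32763533-32763782 for HLA-DQB2 and chr5:150412911-150413160 for CD74, all on the minus strand.
HLA-DQB1: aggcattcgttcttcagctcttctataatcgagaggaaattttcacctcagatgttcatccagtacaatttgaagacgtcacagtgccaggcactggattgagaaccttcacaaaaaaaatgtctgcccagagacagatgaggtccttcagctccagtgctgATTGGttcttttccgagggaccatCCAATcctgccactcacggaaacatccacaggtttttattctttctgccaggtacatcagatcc
HLA-DQB2: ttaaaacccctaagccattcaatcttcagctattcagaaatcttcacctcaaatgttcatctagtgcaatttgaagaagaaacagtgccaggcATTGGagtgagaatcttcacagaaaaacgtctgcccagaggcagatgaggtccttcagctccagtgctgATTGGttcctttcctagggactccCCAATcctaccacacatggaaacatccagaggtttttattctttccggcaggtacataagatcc
CD74: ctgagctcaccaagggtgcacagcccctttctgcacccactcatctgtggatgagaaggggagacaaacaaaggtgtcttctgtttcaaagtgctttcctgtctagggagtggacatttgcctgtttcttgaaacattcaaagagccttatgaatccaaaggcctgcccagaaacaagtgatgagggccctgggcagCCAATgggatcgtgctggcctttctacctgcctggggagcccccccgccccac
HLA-DQB1 and HLA-DQB2 differ by 49 edits (substituted, inserted or missing bases) over this window. CCAAT or ATTGG occurs 2, 3 and 1 times in HLA-DQB1, HLA-DQB2 and CD74. The CD74 match reads CCAAT along the gene and is not the inverted form, while HLA-DQB1 and HLA-DQB2 hold both forms. Over all 27305 genes with such a window 33.0% hold CCAAT on either strand.

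Other genes of the class II pathway gave mixed values. Of 18 such genes with a probe well above background on all 9 arrays, a list made after values were seen, 3 are members and the median was 0.42 in T47D-PA5 and 0.28 in T47D-PA6. HLA-DRB5 (0.79 and 0.65) and HLA-DOB (0.79 and 0.68) fell just short of the limit, and HLA-DRB1 (0.51 and 0.26), HLA-DMA (0.47 and 0.58) and the brighter probe of HLA-DPA1 (-0.01 and 0.16) were lower still. The filter left out dimmer probes that did not all go the same way. An HLA-DQA1 probe, well above background on 3 arrays, gave 1.99 in T47D-PA5 and -0.36 in T47D-PA6. The other HLA-DQA1 probe was also higher in T47D-PA5 and lower in T47D-PA6. An HLA-DPB1 probe, well above background on 1 array, was lower in T47D-PA5 and gave 0.25 in T47D-PA6. In these probes the control arrays overlapped with the other 6. In the dimmer probes that follow, every control array was below the other 6. The second HLA-DPA1 probe, well above background on 5 arrays, read 7.39, 7.03 and 8.49 in T47D-VC1, 12.7, 21.2 and 21.0 in T47D-PA5, and 37.1, 27.8 and 36.8 in T47D-PA6. HLA-DRA, the alpha chain of the DR molecule, passed on 4 arrays and read 2.54, 2.49 and 2.50, then 3.77, 8.75 and 16.9, then 25.1, 11.4 and 18.0. An HLA-DPB1 probe that passed on 6 arrays read 6.98, 7.31 and 13.2, then 17.2, 29.6 and 31.6, then 94.9, 19.3 and 16.7, and the control arrays were also lowest for 1 probe of HLA-DPB2. HLA-DMB, a chaperone of peptide loading, was 0.43 in T47D-PA5 and 1.37 in T47D-PA6, and HLA-DQA2 was 1.39 and -0.61. None of the measured factors that bind the shared module was higher in both lines by the rule. RFX5 was 0.40 and -0.33, RFXANK -0.13 and -0.04, RFXAP -0.30 and -0.50, and NFYA -0.70 and -0.80 by its brighter probe and -0.09 and 0.10 by the other. Neither CIITA probe was well above background on more than 2 arrays. The CIITA probe above it on 1 array read 3.98, 2.71 and 2.66, then 5.53, 5.01 and 4.88, then 20.8, 10.3 and 8.2. Its control arrays were all below the other 6. The CIITA probe above it on 2 arrays gave -1.55 in T47D-PA5 and -0.89 in T47D-PA6, and its control arrays overlapped with the other 6. In T47D-PA6 replicate 1 was above the mean of replicates 2 and 3 by 1.09 for HLA-DQB1, 1.06 for HLA-DQB2, 1.05 for HLA-DRB1 and 1.15 for HLA-DRB5, whereas in T47D-PA5 it was below by 0.57 to 1.08 for these genes. Among 89 interferon-stimulated genes 0 are members, where 0.581% of all genes are, so nothing is read from that count. The median of the 89 genes was 0.78 in T47D-PA5 and 1.82 in T47D-PA6. By limma 26 and 80 of them were called higher, where 1.25% and 4.62% of all genes were.

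**Figure D3:**
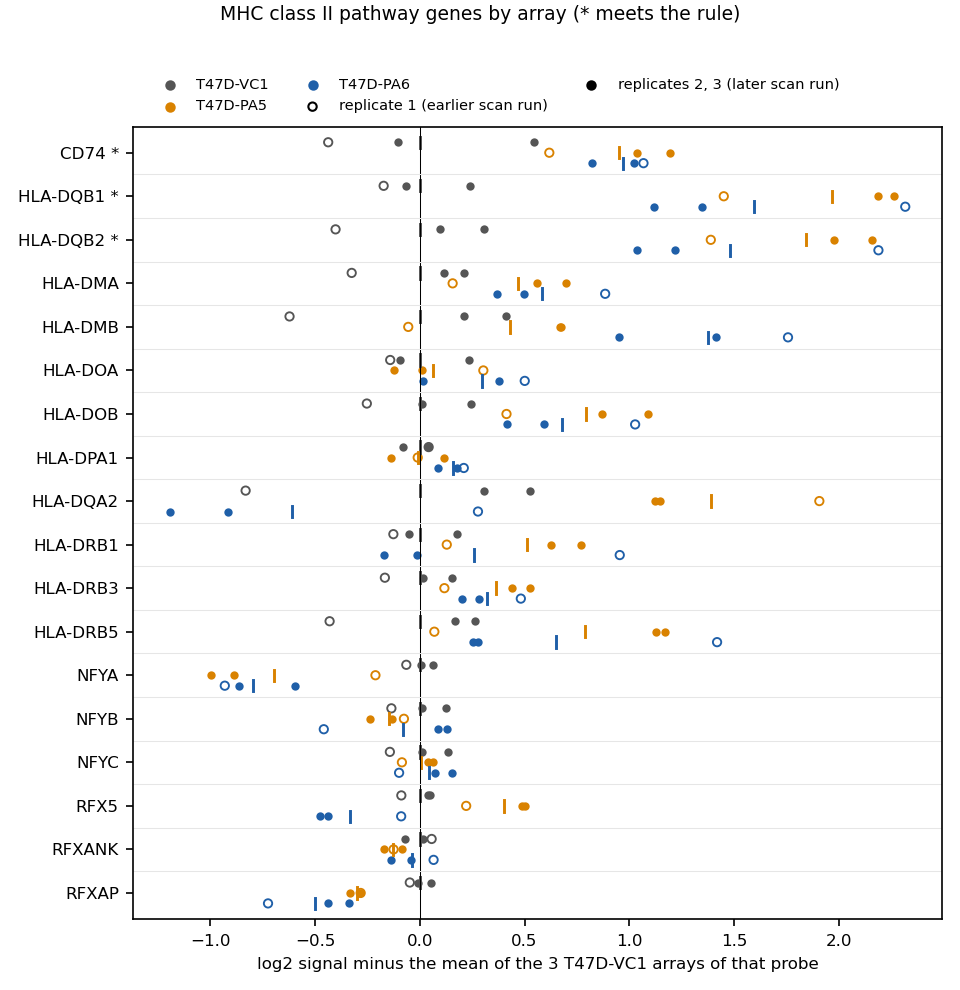
Log2 signal of class II pathway genes on each array minus the mean of the 3 T47D-VC1 arrays of the same probe (asterisks mark CD74, HLA-DQB1 and HLA-DQB2). Open points are replicate 1, filled points replicates 2 and 3, and bars line means. The open T47D-PA6 points of the DQB and DRB genes lie to the right of the filled ones, and HLA-DQA2 lies right of 0 in T47D-PA5 and left of it in T47D-PA6 on the later arrays.

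SNARs made up 6 of the 106 members. SNAR-B2, SNAR-D, SNAR-F, SNAR-G1, SNAR-G2 and SNAR-H all met the rule, out of 8 SNAR genes measured on all 9 arrays, and this list too was drawn up after values were seen. The probes are 60 bases long and are printed as the array file lists them, to show how much the copies share. Capitals mark the longest run that a probe has in common with another of the 6.
SNAR-B2: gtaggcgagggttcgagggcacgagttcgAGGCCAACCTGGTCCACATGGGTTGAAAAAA
SNAR-D: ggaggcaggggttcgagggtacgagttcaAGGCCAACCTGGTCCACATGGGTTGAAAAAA
SNAR-H: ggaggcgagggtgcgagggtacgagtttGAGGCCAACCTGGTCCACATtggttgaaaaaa
SNAR-G2: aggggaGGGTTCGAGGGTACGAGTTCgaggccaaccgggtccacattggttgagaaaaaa
SNAR-F: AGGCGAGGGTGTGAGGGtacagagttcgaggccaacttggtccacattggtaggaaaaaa
SNAR-G1: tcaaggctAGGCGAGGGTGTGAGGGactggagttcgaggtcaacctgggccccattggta
SNAR-B2 and SNAR-D share 31 bases and differ by 5 edits over the whole probe. Across the 15 pairs the edit distance over the whole probe was 5 to 26, with SNAR-G1 at 21 or more from every other. That count includes shifts in where a probe starts. The run that SNAR-G1 shares with SNAR-F opens the SNAR-F probe but lies further inside the SNAR-G1 probe. Part of the SNAR-G1 distance is therefore an offset of the probes and not a difference between the copies. Labelled RNA of 1 copy may bind probes of another, so the 6 are not 6 independent readings. The probes are placed (hg19) at chr19:50637012-50637071 for SNAR-B2, chr19:50643469-50643528 for SNAR-D, chr19:49534934-49534993 for SNAR-G2, chr19:49540322-49540381 for SNAR-G1, chr19:51108271-51108330 for SNAR-F and chr2:78182044-78182103 for SNAR-H.

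SNAR-G1 read 719, 2017 and 2038 in T47D-VC1, 3172, 3756 and 4856 in T47D-PA5, and 2897, 3632 and 4594 in T47D-PA6. All 6 arrays of the 2 lines were above the control arrays, by 2.69-fold and 2.54-fold on the line means. SNAR-D read 22462, 43778 and 48689, then 57508, 68695 and 82185, then 55769, 77600 and 91055, for 1.89-fold and 2.02-fold. The other 4 had log2 differences of 0.89 to 1.11 in T47D-PA5 and 1.02 to 1.12 in T47D-PA6. In all 6 the first T47D-VC1 array was below the mean of the other 2, by 1.04 to 1.5 on the log2 scale, while in T47D-PA5 replicate 1 was below by 0.38 to 0.52 and in T47D-PA6 by 0.38 to 0.61. Without that control array SNAR-G1 was 0.93 and 0.85 higher and kept its place among the members, and the other 5 fell to between 0.52 and 0.72, below the limit in both lines. SNAR-A3 missed the rule at 0.78 and 1.01, and SNAR-I gave 0.60 and 0.27. The SNAR-A3 probe is 21 or more edits from the 6 by the same whole-probe count, which includes any offset. The SNAR-I probe resembles the family on the opposite strand, 8 edits from the nearest. In each line limma called 0 of the 8 after adjustment, and 7 had an unadjusted p under 0.05, for which the share of all genes was not counted. After adjustment with the replicate block 7 were called, where 2.54% of all genes were in T47D-PA5 and 14.8% in T47D-PA6. The filter left out dimmer SNAR probes that did not all rise. The SNAR-C4 probe, well above background on 8 arrays, gave 0.16 in T47D-PA5 and -0.05 in T47D-PA6. A second SNAR-G1 probe, above it on 4 arrays, gave -0.35 and -0.39, opposite to the member probe. Both probes are 30 or more edits from the 6 members on either strand. A SNAR-E probe, above background on 1 array, gave 0.84 and 0.37.

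Other transcripts of RNA polymerase III ranged from values near 0 to values like those of the SNARs. RPPH1, the RNA of ribonuclease P, was 0.76 and 1.04 in T47D-PA5 and T47D-PA6, the vault RNA VTRNA1-3 0.71 and 0.74, and RMRP, the RNA of ribonuclease MRP, 0.66 and 0.72. VTRNA1-2 was 0.51 and 0.43, the transcription regulator RN7SK 0.33 and 0.24, and RN7SL1, the RNA of the signal recognition particle, 0.07 and -0.05. Of these 6 transcripts 0 are members. In each line limma called 0 of them, with or without the replicate block, and 3 had an unadjusted p under 0.05, for which the share of all genes was not counted.

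**Figure D4:**
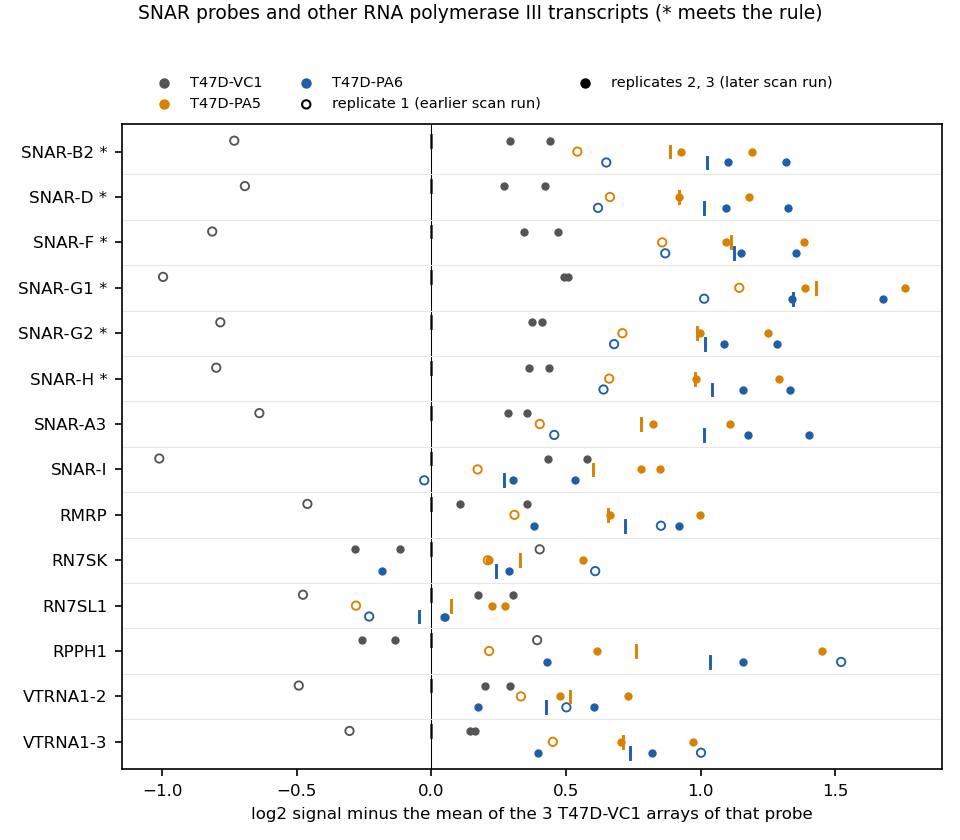
Log2 signal of 8 SNAR probes and 6 other RNA polymerase III transcripts on each array minus the mean of the 3 T47D-VC1 arrays (asterisks mark members). Open points are replicate 1, filled points replicates 2 and 3, and bars line means. The open grey point of each SNAR probe lies far to the left of the filled grey points.

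Beyond these families the raised genes have varied roles, and the groups that follow were formed after values were seen and were not tested. Among secreted and matrix proteins, FBLN1, the matrix protein fibulin 1, read 47.1, 75.8 and 60.7 in T47D-VC1, 165, 189 and 174 in T47D-PA5, and 289, 198 and 217 in T47D-PA6. Its 3 groups did not overlap, and its other probe gave 2.05 and 2.95, a gap above the limit. FBLN1 was the only member among 33 genes of epithelial-mesenchymal transition. GPNMB, a glycoprotein of the cell surface, read 1189, 1054 and 992, then 2283, 3005 and 3130, then 2460, 2156 and 2133. SECTM1, a secreted and transmembrane protein of epithelial and myeloid cells, read 891, 545 and 458 in the control line, 1332, 1287 and 1278 in T47D-PA5, and 2207, 1389 and 1385 in T47D-PA6. Its neighbour TEX19, a germ cell gene whose probe lies 42.3 kb away, was 2.51-fold and 1.97-fold higher and was the only member of 18 cancer-testis genes.

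Several raised genes encode receptors and signalling proteins of epithelium and blood cells. RET, a receptor tyrosine kinase that estrogen induces in luminal breast cells, read 139, 143 and 116 in T47D-VC1, 223, 313 and 244 in T47D-PA5, and 220, 299 and 341 in T47D-PA6. Its other probe gave log2 differences of 1.74 and 1.13, a gap above the limit. RET was the only member of 53 genes of steroid hormone response, whose medians were 0.08 and 0.03. IL3RA, the alpha chain of the interleukin 3 receptor, was 2.26-fold and 2.55-fold higher, IL22RA1 1.81-fold and 2.30-fold, and the ATP-gated channel P2RX7 1.99-fold and 2.30-fold. IL3RA had 1 T47D-PA5 array at 21.9, within the control range of 18.9 to 25.9. SMAD3, which carries TGF-beta signals to the nucleus, read 203, 223 and 191, then 406, 389 and 389, then 299, 529 and 541, with no overlap of the control arrays. CARD16, a decoy relative of caspase 1, read 16, 29.0 and 26.6, then 63.0, 58.4 and 68.2, then 74.0, 40.7 and 45.2.

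Several metabolic and structural proteins were also raised. ASS1, argininosuccinate synthase of the urea cycle, read 3972, 4118 and 3720 in T47D-VC1, 15882, 9643 and 10102 in T47D-PA5, and 11242, 10338 and 9890 in T47D-PA6, for 2.94-fold and 2.66-fold. Its second probe gave 1.49 and 1.43 on the log2 scale. WFS1, a calcium regulator of the endoplasmic reticulum, read 1658, 1927 and 1812, then 3260, 3320 and 3196, then 3945, 4062 and 4236, with 3 groups that did not overlap and within-line SDs of 0.0275 to 0.109. NFE2L3, a transcription factor of the cap'n'collar family, read 27.4, 29.3 and 29.4, then 67.5, 92.0 and 92.5, then 55.8, 96.1 and 102. MVP, the major vault protein, read 3977, 2009 and 2008, then 4979, 4389 and 4287, then 7865, 5094 and 5192. The actin crosslinker FLNA was 1.81-fold and 1.76-fold higher.

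CDKN1C, the cell cycle inhibitor p57, was the only member of 61 cell cycle genes and stood at the edge of the rule. Its signal was 445, 215 and 187 in T47D-VC1, 282, 585 and 584 in T47D-PA5, and 531, 709 and 710 in T47D-PA6. In the earlier run T47D-PA5 was below the control by 0.66 on the log2 scale, and in the later run it was above it by 1.54. MGAT3, which adds bisecting N-acetylglucosamine to glycans, also differed between the runs. It read 222, 117 and 110 in T47D-VC1, 222, 440 and 489 in T47D-PA5, and 185, 677 and 682 in T47D-PA6. In the earlier run T47D-PA5 was level with the control, and T47D-PA6 differed from it by -0.26. KLK8, CDKN1C and MGAT3 were the 3 raised genes that were not higher in both lines in the earlier run.

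Among the 16 lowered genes, 9 carry the name of a protein-coding gene and 7 that of a noncoding or unannotated model. The largest difference was that of lnc-EMX2-5, a noncoding model on chromosome 10, which read 493, 596 and 634 in T47D-VC1, 74.1, 170 and 186 in T47D-PA5, and 231, 161 and 173 in T47D-PA6. The ratio to the control line was 0.232 and 0.326, and its 2 other probes gave -1.84 and -2.21 in T47D-PA5 and -1.0 and -1.47 in T47D-PA6. The 2 transcript models nearest outside the limit on the gap, at -2.02 and -1.51 and at -2.00 and -1.48, have probes that overlap it on the genome. FAM3B, a secreted protein of pancreatic islets, read 43.1, 84.0 and 74.4 in T47D-VC1, 28.9, 32.4 and 16.7 in T47D-PA5, and 23.3, 23.4 and 28.4 in T47D-PA6, a ratio of 0.387 and 0.386, with the control arrays all highest.

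SATB1, an organizer of chromatin loops, read 1857, 3360 and 3471 in T47D-VC1, 1040, 1760 and 1675 in T47D-PA5, and 1594, 1092 and 1133 in T47D-PA6, for ratios of 0.521 and 0.45. LRRN3, a leucine-rich repeat protein of neurons, read 21426, 18634 and 18918, then 6194, 13441 and 12511, then 7972, 11522 and 11066. Neither gene had a control array within the range of the other lines. CARD6 read 166, 50.8 and 49.7, then 19.1, 30.1 and 43.6, then 34.8, 39.6 and 47.1, and without the first control array its differences were -0.78 and -0.32. TMCC2 read 166, 68.8 and 163, then 72.5, 60.2 and 42.3, then 40.1, 71.1 and 89.1, with overlap. MYOG, myogenin of skeletal muscle, was dim, at 30.4, 31.0 and 35.0, then 18.0, 23.4 and 12.7, then 18.2, 17.8 and 16.8. HS6ST3, a heparan sulfate sulfotransferase, had ratios of 0.554 and 0.504 and overlapped with the control line in T47D-PA6. C9orf47 was at 0.534 and 0.382.

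The 2 scan runs gave separate readings of the same rule. In the earlier run, with 1 array per line, 87 of 90 raised and 16 of 16 lowered genes differed from T47D-VC1 in their own direction in both lines, and 56 and 10 passed 0.8 in both. In the later run these numbers were 90 and 16, and 66 and 9. The direction over all arrays was fixed by the choice of members, and both runs were part of it. The whole rule was met within the earlier run by 38 raised and 6 lowered genes, within the later run by 52 and 8, and in both runs by 17 and 2. When each array in turn was left out, 30 raised genes and 2 lowered genes met the rule in all 9 sets. Without T47D-VC1 replicate 1, 64 raised and 10 lowered genes met it. That array was more than 1 log2 unit below the mean of the other control arrays in 15 raised genes and more than 1 above it in 9.

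**Figure D5:**
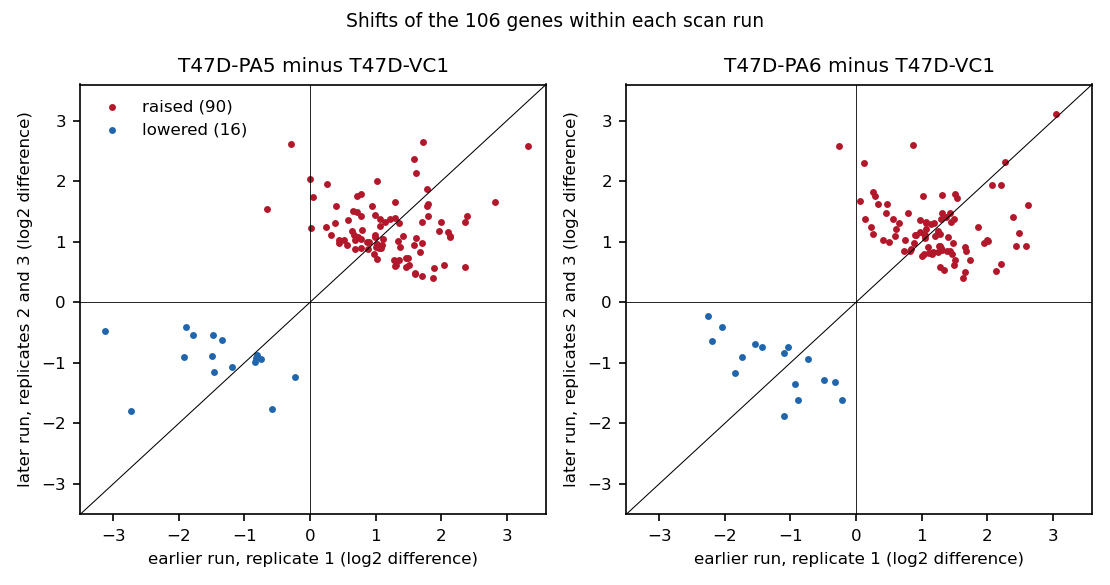
Log2 difference from T47D-VC1 of each of the 106 genes in the earlier run (replicate 1, horizontal axis) and in the later run (mean of replicates 2 and 3, vertical axis), for T47D-PA5 on the left and T47D-PA6 on the right. The diagonal marks equal differences. Lowered points all lie below 0 on both axes, and raised points left of 0 are KLK8 and CDKN1C in T47D-PA5 and MGAT3 in T47D-PA6.

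The control level, which entered the rule through both differences and the background filter, had a median of 6.6 in raised and 6.74 in lowered genes on the log2 scale, against 8.95 over all genes. Of the 106, 17 had 23 further probes above background on all 9 arrays, all 23 lay in the member's direction in both lines, and 11 met the rule. By type 87 members are protein-coding, 6 are SNARs, 2 are long noncoding, 1 is a pseudogene and 10 had no match in RefSeq. LOC101928794 and LOC101928942 are now called MAST4-AS1 and PRKG2-AS1, and they stayed in because the files use the older names. Of 105 members with a position, 25 had another member within 1 Mb, in 14 neighbouring pairs that all shared a direction. The share for other genes was not counted, and 90 of the 106 are raised, so nothing is read from these counts. The pairs include SNAR copies and HLA-DQB1 with HLA-DQB2, whose signals may be shared. The SECTM1 and TEX19 pair and the KLK1 and KLK8 pair had no other measured gene between them. Between CD74 and SYNPO, 246 kb apart, the 4 genes had medians of 0.04 and 0.05, and between APOBEC3F and MGAT3 the 9 genes had medians of -0.13 and -0.04.

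RefSeq promoter windows were found for 57 raised and 10 lowered genes. The AP-1 site TGANTCA was in 7 of 57 raised and 2 of 10 lowered windows and in 6.6% of all, counted on both strands in the 250 bases before the start. CCAAT was in 15 of 57 and in 33.0% of all, the E-box CACGTG in 4 and 6.49%, the gamma-activated site TTCNNNGAA in 3 and 6.78%, the nuclear receptor site AGGTCA in 5 and 12.1%, and TATAAA in 3 and 11.1%. These are matches of letters in a window and not bound sites.

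At the limits of the rule, the raised genes with the smallest differences were ARHGEF4 (0.81 and 1.27) and CDKN1C (0.81 and 1.30). SP110 (0.80, just under the limit, and 1.22) and DIRAS1 (0.98 and 0.80, again just under) were nearest outside. CDKN1C and ZC3H12C had gaps of 0.49 and 0.48, and DKFZp779M0652 and DYNLT3, at 0.50 and 0.50, exceeded the limit by a small margin. Among lowered genes HS6ST3 and THC2659602 were nearest inside, and LOC101927085 (-0.80 and -1.10) and ADM (-0.79 and -1.09) nearest outside.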

How the data were processed

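Single-color SurePrint G3 Human v3 arrays, 3 per line, gave the RNA levels of T47D-VC1, T47D-PA5 and T47D-PA6. The authors deposited background-subtracted intensities of each spot (Feature Extraction 10.7.1.1 in the file headers, 9.5.1.1 in the submitters' processing notes) and 1 table of linear intensities, made comparable between arrays by quantile normalization in R. The log2 of that table was used here, 58201 probes in all, and it correlated at over 0.999 with the scanner signal of the same array. Scanning, spot finding and background subtraction were not repeated. Probe positions are those of the array files (hg19). Gene names were checked against RefSeq (GRCh38.p14), which matched 89 members by symbol, 6 by accession and 1 by synonym.

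The members and lists were chosen with earlier results of these data known. The genes named are the 12 raised and 12 lowered members with the largest mean shift, members in a gene list, those next to a limit of the rule, and others that were chosen after their values were seen. Values of a few genes that this rule picks are left out. limma 3.58.1 (R 4.3.3, lmFit, eBayes) fitted the 9 arrays together, leaving 6 residual degrees of freedom, and an adjusted p-value (Benjamini-Hochberg, 18250 genes) under 0.05 was a call. The number of arrays limits the precision. Simulated data were used to test the fit. Samples with the same replicate number deviated together from their line means (correlations of 0.136 to 0.377 for all 9 same-number pairs). Replicates 2 and 3 of different lines, which share the later scan run, also did so (0.113 to 0.319), while replicate 1 against replicates 2 and 3 gave -0.364 to -0.152, so the block cannot be told apart from the scan run in replicate 1. A fit with the replicate number as a block was made. Other alternatives were the scanner signal quantile-normalized or shifted to the 75th percentile, normexp with an offset of 50, other filters on dim probes, other ways to choose a probe, each array left out, each scan run alone, slide as a block, an intensity trend, the compared lines alone and the methods' t-test. No set was tested. Other experiments of the authors were not used here.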

Additional observations from a re-analysis of the deposited data

How the results depend on the processing

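The rule depends on its filter and background correction. Against 90 raised and 16 lowered genes, normexp background correction with an offset of 50 gave 40 and 7, no filter on dim probes 264 and 326, and a filter met in at least 1 line 146 and 49. The earlier scan run alone gave 162 and 155, and the later run gave 113 raised genes and 28 lowered ones. Leaving out 1 array gave 78 to 115 raised and 16 to 44 lowered genes, 44 of them without T47D-VC1 replicate 2. The number of members called in T47D-PA5 over T47D-VC1 was 36 (1.49%, the share of all genes called by the same setting, as in the brackets that follow). The number was 18 without a filter (0.466%), 94 in the later run (25.4%), 68 with slide as a block (3.17%) and 60 with the replicate block (2.54%). By the methods' t-test after Benjamini-Hochberg it was 2 (0.0712%), and it was 11 to 46 when 1 array was left out (0.268% to 2.99%). It was 11 when T47D-VC1 replicate 3 (0.323%) or replicate 3 of T47D-PA5 (0.268%) was left out. It changed to 15 without T47D-PA5 replicate 2 (0.378%) and to 20 without T47D-VC1 replicate 2 (0.636%). In these last sets the share of all genes called was lower as well. In T47D-PA6 over T47D-VC1 the number was 64 (10.4%). It was 33 without a filter (2.98%), 97 in the later run (40.7%), 86 with the replicate block (14.8%) and 11 by the methods' t-test (2.04%). When 1 array was left out it was 31 to 73 (3.38% to 14.4%). It was 31 on leaving out T47D-VC1 replicate 3 (3.4%) or replicate 3 of T47D-PA6 (3.38%) and 34 without T47D-PA6 replicate 2 (3.74%). Between T47D-PA6 and T47D-PA5 the number was 0 (9.76%). It was 1 with normexp (10.8%), without a filter (2.93%), with the mean of a gene's probes (10%), with an intensity trend (10.8%) and by the methods' t-test (3.99%). It was 3 with the slide block (10.6%), 3 with the replicate block (13.1%) and 38 in the later run (38.9%). When 1 array was left out it was 0 to 5 (3.59% to 15.5%), with 5 without T47D-PA6 replicate 1 (15.5%). The causes were not tested.

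All 106 genes kept their direction in both lines under every alternative with a test, and 103 did so in the earlier run alone. Of 4240 differences of the 106 genes under the alternatives, 4070 moved by less than the larger within-line SD of the compared lines. Another 167 moved by more and 3 changed sign, all in the earlier run, KLK8 (-0.29) and CDKN1C (-0.66) in T47D-PA5 and MGAT3 (-0.26) in T47D-PA6. The 4070 include values that could not move, so they are no measure of stability. The balanced replicate block leaves every difference as it was, as does leaving out an array of the line not compared. With 3 arrays a line and a control shared by both differences, these data cannot separate equal shifts from small unequal ones in most members.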

Other observations

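The limit on names removed 17 genes that otherwise met the rule, 10 higher and 7 lower than T47D-VC1 in both lines.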
